A study of Mus musculus with 3 samples.

Results

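Interferon response genes were followed across spatially barcoded spots of the pregnant mouse uterus. The 34 genes were taken by symbol from the 32285 genes of each matrix, in spots with at least 1000 unique molecular identifiers (UMIs), and all 34 symbols were found. They were divided into 21 type I style members (the Ifit, Oas and Oasl genes, Isg15, Ifi27l2a, Ifi27, Ifi35, Ifi44, Ifih1, Ddx58, Irf7, Irf9, Stat2, Rsad2, Usp18, Bst2, Xaf1 and Rtp4) and 13 gamma style members (5 Gbp genes, Igtp, Irgm1, Iigp1, Irf1, Irf8, Psmb8, Psmb9 and Tap1). The names of these classes are labels of convenience, since many of the genes answer to both kinds of interferon. A narrower division, with Isg15, Ifit and Oas genes on one side and Gbp genes, Irf1 and Iigp1 on the other, was kept as an alternative.

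The series holds 3 Visium libraries of frozen uterine sections taken at pregnancy day 7.5 from females mated with stud males, kept with littermates on normal chow to the age of 8 weeks. All mice fall in one group, with no treatment or mutant, so the comparisons are between regions of the tissue. One library carries biological replicates 1 and 2 together and cannot be divided between them, and the others carry replicate 3 and replicate 4. A spot covers several cells, so fewer cells of a type and less RNA per cell cannot be told apart in any value below.

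Type I interferons signal through Ifnar1 and Ifnar2 to a complex that includes Stat2 and Irf9 and binds the interferon stimulated response element (ISRE) of antiviral genes such as Isg15 and the Ifit family. Interferon gamma signals through Ifngr1 and Ifngr2 and acts through the gamma activated site (GAS) of genes such as Irf1, whose product in turn acts on Gbp genes and on genes of antigen processing. In the mouse uterus after implantation, natural killer cells are a known source of interferon gamma, and that cytokine is known for its part in remodelling decidual arteries.

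Stretches of promoter are shown for 9 of the members that carry the letters of one or both elements upstream of the gene start and whose regional results are described below. The choice is not complete. Rsad2 and Gbp2 also carry the ISRE letters upstream, and Bst2 and Igtp those of both elements, and they are not shown. Capitals mark matches to the ISRE pattern (GAAA, any 2 bases, then GAAA again) or the GAS pattern TTCNNNGAA, searched on both strands. The sequences are RefSeq's, on GRCm38.p6, and run 5′ to 3′ on the strand of the gene.
Isg15 (minus strand, chr4:156200865-156200944, bases -126 to -47): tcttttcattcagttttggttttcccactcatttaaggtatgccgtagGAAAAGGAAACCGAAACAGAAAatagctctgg
Ifit1 (plus strand, chr19:34640744-34640823, bases -145 to -66): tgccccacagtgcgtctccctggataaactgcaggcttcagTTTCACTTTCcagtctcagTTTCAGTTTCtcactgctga
Ifit3 (plus strand, chr19:34583347-34583426, bases -182 to -103): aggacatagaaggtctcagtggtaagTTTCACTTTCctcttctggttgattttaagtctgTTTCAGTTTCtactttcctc
Gbp3 (plus strand, chr3:142559945-142560024, bases -99 to -20): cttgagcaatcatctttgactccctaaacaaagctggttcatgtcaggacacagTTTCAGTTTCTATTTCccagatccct
Irgm1 (minus strand, chr11:48871425-48871504, bases -84 to -5): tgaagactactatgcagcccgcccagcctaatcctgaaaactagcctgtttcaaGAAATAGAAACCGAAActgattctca
Gbp7 (plus strand, chr3:142530223-142530302, bases -113 to -34): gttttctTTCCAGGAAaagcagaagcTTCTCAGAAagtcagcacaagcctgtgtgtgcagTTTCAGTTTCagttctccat
Irf8 (plus strand, chr8:120736144-120736223, bases -214 to -135): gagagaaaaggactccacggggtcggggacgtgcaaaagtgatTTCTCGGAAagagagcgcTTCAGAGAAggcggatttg
Irf1 (plus strand, chr11:53769863-53769942, bases -151 to -72): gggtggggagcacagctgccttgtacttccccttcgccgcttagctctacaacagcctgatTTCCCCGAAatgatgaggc
Psmb8 (plus strand, chr17:34198037-34198116, bases -158 to -79): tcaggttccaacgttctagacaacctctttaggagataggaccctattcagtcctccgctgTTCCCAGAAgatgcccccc

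In these stretches Isg15, Ifit1, Ifit3, Gbp3 and Irgm1 show the ISRE pattern, in Isg15, Gbp3 and Irgm1 as overlapping matches. Irf8, Irf1 and Psmb8 show the GAS pattern, and Gbp7 shows both. Promoter windows from 250 bases before to 50 bases after the gene start were at hand for 27 of the 34 members. Some genes have more than one window, and a gene was counted once if any of its windows held a match. The ISRE pattern stood in 8 of 16 type I style genes (50%) and in 6 of 11 gamma style genes (54.5%), against 3.99% of all 27025 genes with a window. The GAS pattern stood in 3 of 16 type I style genes (18.8%) and in 6 of 11 gamma style genes (54.5%), against 9.55% of all genes with a window. A match describes the letters only and is not a measured binding site.

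The libraries are given throughout in the order replicates 1 and 2, replicate 3, replicate 4. They held 1811, 1081 and 1086 spots, of which 1773, 1080 and 1086 passed the UMI minimum, with 16915926, 27279702 and 29953072 UMIs. The median depth was 8038, 26543 and 28286 UMIs per spot, so the first library is the shallowest. Between 676 and 825 barcodes recur between any pair of libraries, since all slides use a common barcode list, and they were treated as different spots. Clustering on a random set of genes without any member gave 12 regions, named here by number, and UMIs were summed per library and region into 35 sums (replicate 3 had no spot in region 12). Levels are CPM, the UMIs of a gene per 1e6 UMIs of such a sum, without further scaling. The fit also scaled the sums to each other over the genes fitted (edgeR's TMM). Its log2 fold changes can therefore be larger or smaller than the ratios of the printed CPM. The fit held 6488 genes and 33 of the 34 members; Gbp5, with 52 UMIs in all, was below its count filter. A member is called higher or lower in a region where edgeR's quasi-likelihood test gave a Benjamini-Hochberg adjusted p under 0.05 over all 6488 genes and the log2 difference from the mean of the other regions was 1 or more in either direction. The library was a block in the fit. The spread behind these p-values is thus how far regional differences vary between the 3 libraries, pooled over the regions. The background is the share of all 6488 genes called in this fit. It was not counted under the alternatives, so counts given for those have no background beside them.

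Over the 12 regions, member and region pairs were called higher 71 times (background over all genes 11.6%) and lower 74 times (background 8.21%). The high calls gathered in 2 regions. In region 3 (leading clustering genes Scn3b, Qrfpr and Aldh1a3) 26 of 33 members were higher, against 7.88% of all genes, and none was lower, against 6.18% of all genes. In region 5 (Srd5a1, Mrgprg and Bco1) 21 were higher, against 13.9% of all genes, and none was lower, against 6.87%. For both counts of 0, edgeR gave 0 lower members at an unadjusted p under 0.05 and DESeq2 called 0. The low calls gathered in region 6 (Ptx3, Fabp4 and Sprr2h), with 19 members lower and 1 higher (background 12.8% and 10.1%), and in region 1 (Mt4, Stra6 and Sfrp5), with 18 lower and 0 higher (background 7.68% and 5.9%). For the 0 of region 1, 3 members were higher at an unadjusted p under 0.05 in edgeR and DESeq2 called 0.

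**Figure D1:**
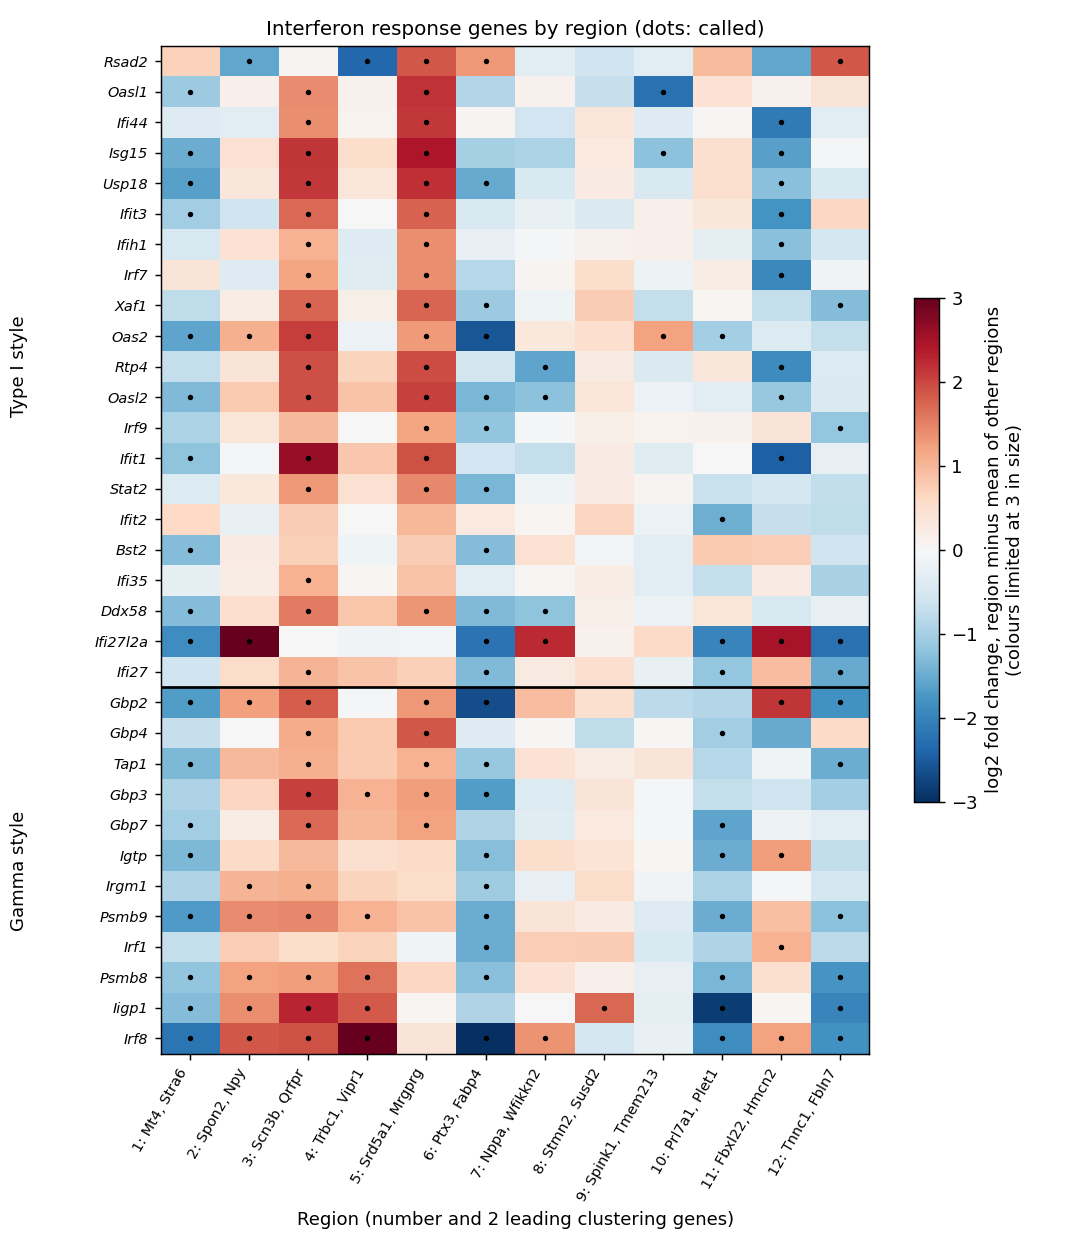
Log2 fold change of each of the 33 tested members (down the page) in each of the 12 regions (across) against the mean of the other regions, with black dots on called values and a line between type I style and gamma style members. Region 3 is higher for 26 members and region 5 for 21, region 6 is lower for 19 and region 1 for 18, and the Ifi27l2a, Irf8 and Rsad2 rows follow other orders.

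Region 3 had high levels of both classes. All 20 natural killer cell markers had UMIs in each library there, with a summed level of 1948 to 16072 CPM, and 19 of 20 were called higher; of 18 endothelial markers 6 were called higher, with a summed level of 1560 to 1839 CPM. The part of either cell type in the values of region 3 was not tested. Of 21 type I style members 16 were higher and the median log2 fold change was 1.39. Of 12 gamma style members 10 were higher and the median was 1.36, beside a median of -0.00 over all genes tested. Setting region 3 against all other spots pooled, in place of the mean of the regions, left 11 type I style and 5 gamma style members higher. The share over all genes was not counted for that comparison.

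Ifit1, which binds viral RNA that lacks host cap marks, had 27.9, 45.6 and 39.0 CPM in region 3, against 0 to 26.7 CPM in the sums of the other regions. No library of another region reached the lowest of region 3, and the log2 fold change was 2.61 ± 0.15 (SE, adjusted p = 1.2e-16, higher in 3 of 3 libraries). Isg15, a ubiquitin-like protein attached to other proteins after interferon, had 152, 403 and 536 CPM in region 3, against 11.4 to 428 CPM elsewhere. The groups overlap: region 5 is as high, and the first library is the lowest of the 3 in region 3; the log2 fold change was 2.14 ± 0.14 (adjusted p = 2.4e-15, higher in 3 of 3 libraries). Ifit3, of the same family as Ifit1, had 23.5, 28.6 and 27.6 CPM in region 3 and 19.8, 28.0 and 18.9 CPM in region 5, and was called higher in both, with log2 fold changes of 1.70 ± 0.20 and 1.76 ± 0.21. Rtp4, an interferon-induced chaperone of receptors, had 98.8, 114 and 104 CPM in region 3, and its log2 fold change was 1.94 ± 0.11 (adjusted p = 7.3e-17).

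Among gamma style members of region 3, Gbp3, a guanylate binding GTPase of cell-autonomous defence, had 41.9, 46.1 and 50 CPM. That was above every sum of the other regions, and its log2 fold change was 2.06 ± 0.15 (adjusted p = 1.1e-13). Iigp1, an immunity-related GTPase that acts on the vacuoles of intracellular parasites, had 34.5, 39.0 and 37.2 CPM in region 3, with a log2 fold change of 2.27 ± 0.19 (adjusted p = 3e-12). Irf8, a transcription factor of myeloid and lymphoid cells, had 19.1, 57.2 and 36.1 CPM there and a log2 fold change of 1.91 ± 0.16 (adjusted p = 2.5e-12), which fell under the fold threshold at 0.68 against the pooled other spots. All 3 were higher in 3 of 3 libraries. The 7 members of region 3 without a call were Bst2, Irf1, Igtp, Rsad2, Ifi27l2a, Irf9 and Ifit2, with log2 fold changes between -0.00 for Ifi27l2a and 0.98 for Irf9.

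Region 5 had high levels of type I style members above all. The endothelial list was highest of all regions there, at 1942 to 2349 CPM, and 15 of its 18 tested genes were called higher. The decidual list was high as well, at 22801 to 49921 CPM, with 9 of 17 tested genes called higher and 2 lower. The natural killer cell list ranged from 43.0 to 4136 CPM over the 3 libraries. Of the trophoblast markers 7 of 9 tested were higher. Their list had 116 to 146 CPM, against 102 to 134 CPM in region 6 and 2305 to 3509 CPM in region 10. The neutrophil list stood at 4850 to 5336 CPM, nearly all of it S100a8, with Ly6g at 0. The part of these cells in the interferon values was not tested. Of 21 type I style members 16 were higher, with a median log2 fold change of 1.44, and of 12 gamma style members 5 were higher, with a median of 0.75, beside 0.01 over all genes. With only spots of at least 5000 UMIs the regions were drawn anew. The best match of region 5 then shared 0.5 of all spots that lay in either of the pair. In that match 11 type I style members and 1 gamma style member were higher. The parts of depth and of the redrawing in this change were not tested. Against the pooled other spots the counts were 14 and 2. The share over all genes was not counted for either alternative.

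Isg15 had 172, 404 and 428 CPM in region 5, and its log2 fold change was 2.43 ± 0.14 (adjusted p = 2e-17). Ifi44, an interferon-induced protein that restricts viral growth, had 43.0, 57.7 and 29.2 CPM in region 5 and a log2 fold change of 2.12 ± 0.13 (adjusted p = 1.8e-16). Its highest regional level was region 5 in each library, although replicate 4 was the lowest of the 3. Xaf1, a protein that promotes cell death, had 59.9, 66.4 and 67.3 CPM in region 5, and a log2 fold change of 1.75 ± 0.11 (adjusted p = 5.9e-16). Gbp4 had 23.3, 33.1 and 18.9 CPM in region 5 and a log2 fold change of 1.86 ± 0.19 (adjusted p = 2.7e-10); its gene overlaps Gbp8 and Gbp9 on the same strand, so reads may be divided among them. Gbp3, Gbp7 and the peptide transporter gene Tap1 had smaller differences in region 5, of 1.25 ± 0.18 (adjusted p = 3.2e-07), 1.2 ± 0.15 (adjusted p = 2.5e-08) and 1.04 ± 0.13 (adjusted p = 1.8e-08) on the log2 scale. All 7 were higher in 3 of 3 libraries. Without replicate 4, Tap1 in region 5 fell under the fold threshold at 0.85. In the region redrawn from spots of at least 5000 UMIs, Gbp3, Gbp7 and Tap1 gave 0.25, 0.56 and 0.53 and were no longer called. Against the pooled other spots they gave 0.57, 0.70 and 0.68.

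Region 4 (Trbc1, Vipr1 and AW112010) was the region with the highest natural killer cell list, at 11361 to 23076 CPM, with all 20 markers present in each library and all called higher; 4 of 14 tested macrophage markers were also higher. There 5 of 33 members were higher (background 9.51%) and 1 was lower (background 9.11%). The 5 were gamma style members out of 12 tested, with a class median log2 fold change of 0.89. None of 21 type I style members was higher in edgeR, 7 were at an unadjusted p under 0.05 and DESeq2 called 0, and the class median was 0.12, beside 0.01 over all genes. That count of 0 became 3 with regions found on the other random set of genes, 7 at a clustering resolution of 0.3, 1 at a resolution of 1.0, 2 without replicate 3 and 1 without replicate 4. Against the pooled other spots it stayed at 0 with a median of -0.35, and 2 gamma style members were then higher.

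Irf8 had 66.4, 102 and 113 CPM in region 4, above every sum of the other regions, where it lay between 0 and 57.2 CPM. Its log2 fold change was 3.19 ± 0.14 (adjusted p = 3e-20, higher in 3 of 3 libraries). Psmb8, a subunit of the immunoproteasome that cuts peptides for MHC class I, had 91.8, 150 and 144 CPM in region 4 and a log2 fold change of 1.63 ± 0.13 (adjusted p = 7.6e-13). Region 4 was the highest for Irf8 and Psmb8 in each library. Iigp1 had 47.3, 24.1 and 29.7 CPM in region 4 and a log2 fold change of 1.84 ± 0.21 (adjusted p = 3.1e-09), and Psmb9, the partner subunit of Psmb8, had 17.8, 33.5 and 31.1 CPM and a log2 fold change of 1.05 ± 0.15 (adjusted p = 4.2e-07). Against the pooled other spots these came to 0.90 and 0.55, under the fold threshold, and Psmb9 was also under it, at 0.97, with no UMI minimum. Rsad2, the antiviral enzyme viperin, was the member called lower in region 4, with 0.685, 2.34 and 1.81 CPM there, against 1.89 to 25.6 CPM in the sums of the other regions. The groups overlap at their edge, and the log2 fold change was -2.35 ± 0.35 (adjusted p = 8e-07).

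Region 5 was then set directly against region 4 in the same fit; they were chosen as the regions with the highest endothelial list and the highest natural killer cell list, neither of which holds a member. In region 5, 15 of 33 members were higher (background 18.8%) and 2 were lower (background 16.2%). Of 21 type I style members 14 were higher, with a median log2 fold change of 1.17, and none was lower, with 0 at an unadjusted p under 0.05 in edgeR and 0 in DESeq2. Of 12 gamma style members 1 was higher and 2 were lower, with a median of -0.01, the value also found over all genes. The CPM printed below lack the fit's scaling. For Ifi44, Irf7, Irf8, Iigp1 and Gbp2 they place region 5 lower beside region 4, on average over the libraries, than the fit does. The count of 15 depended on how the regions were drawn. It was 9 with regions found on the other random set of genes, 9 with spots of at least 5000 UMIs, 2 at a resolution of 0.3, where regions 3 and 4 overlapped best with the same larger region, and 2 at a resolution of 1.0, where the natural killer cell list picked another region than the best match of region 4.

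Rsad2 had 25.6, 19.5 and 16.4 CPM in region 5, against 0.685, 2.34 and 1.81 CPM in region 4. The libraries do not overlap, and the log2 fold change was 3.86 ± 0.35 (adjusted p = 8.6e-12). Ifi44 had 43.0, 57.7 and 29.2 CPM in region 5, against 19.2, 16.4 and 15.9 CPM in region 4 (log2 fold change 1.84 ± 0.18, adjusted p = 3.6e-11). Irf7, the transcription factor that amplifies type I interferon production, had 106, 142 and 120 CPM in region 5, against 54.1, 56.0 and 61.2 CPM in region 4 (log2 fold change 1.61 ± 0.15, adjusted p = 9.8e-12). The Irf7 and Xaf1 differences came to 0.64 and 0.65 at a resolution of 0.3 and to 0.45 and 0.80 at 1.0, under the fold threshold; the Xaf1 difference was 1.45 ± 0.15 (adjusted p = 3e-10) with the regions as drawn.

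Irf8 was lower in region 5, with 4.65, 18.5 and 9.82 CPM, against 66.4, 102 and 113 CPM in region 4. Its log2 fold change was -2.58 ± 0.20 (adjusted p = 2.4e-13) and every library of region 5 lay below every library of region 4. Iigp1 was also lower in region 5, with 9.89, 7.18 and 5.71 CPM, against 47.3, 24.1 and 29.7 CPM in region 4 (log2 fold change -1.64 ± 0.29, adjusted p = 7.1e-06). Gbp2 was the gamma style member called higher in region 5 (log2 fold change 1.24 ± 0.26, adjusted p = 0.0001). It had 18.0, 19.5 and 17.1 CPM there, against 12.3, 11.3 and 9.41 CPM in region 4. The call is the fit's: the unscaled CPM of each library differ by less than the fold threshold. That call was lost with the other random set of genes, at either other resolution and at 5000 UMIs, where the log2 fold change was 0.59, 0.21, 0.32 and 0.29.

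**Figure D2:**
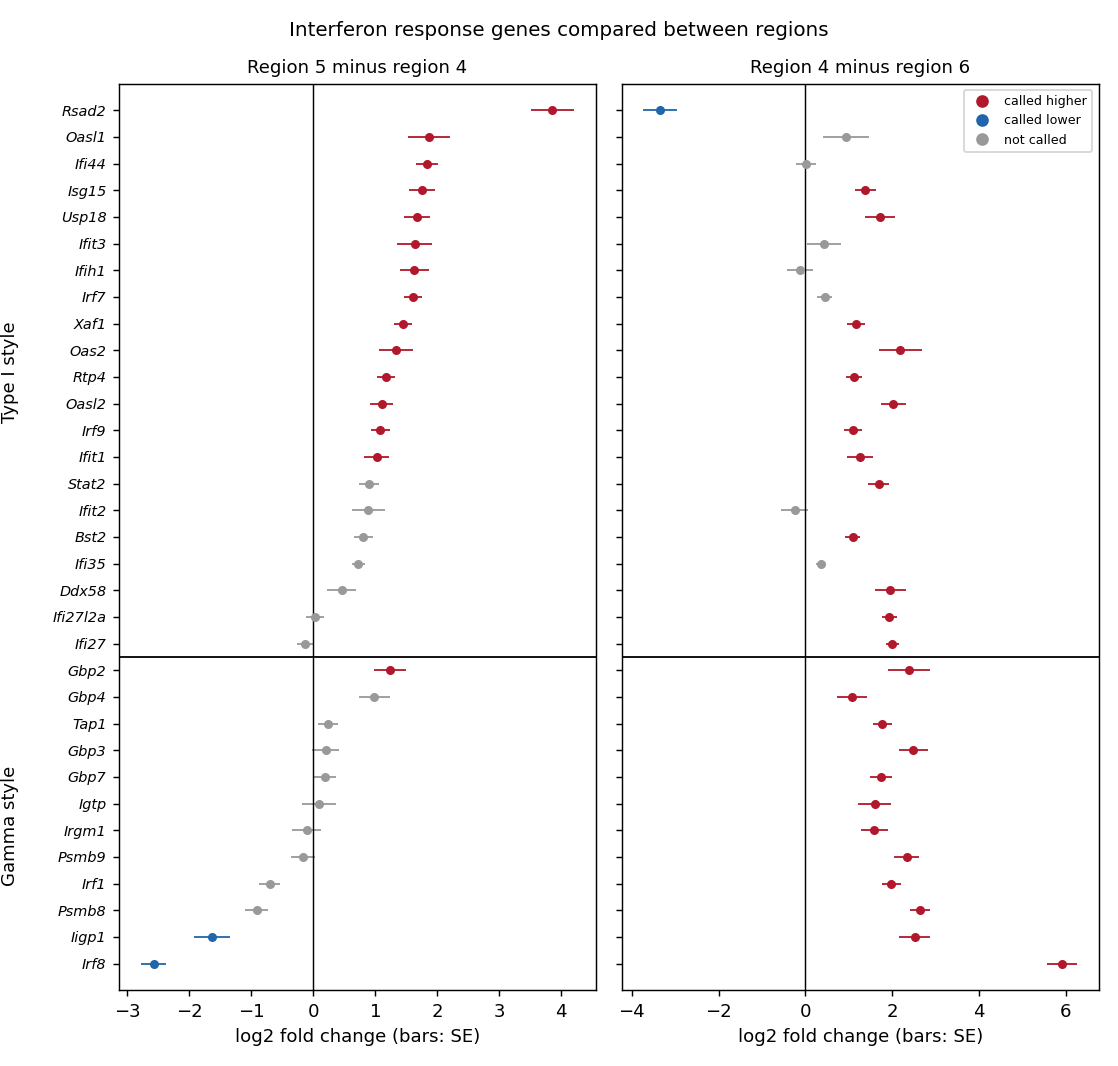
Log2 fold change with its SE for each tested member in region 5 minus region 4 (left) and region 4 minus region 6 (right), coloured by call, with type I style members above the line and gamma style members below it. On the left 14 type I style members lie right of 0 with a call while Irf8 and Iigp1 lie left of it, and on the right 25 members are higher and Rsad2 alone is lower.

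The lowest sums of both classes lay in regions 12, 6 and 1. Region 6 had a decidual list of 64095 to 113489 CPM, with 13 of 17 tested genes called higher, and a natural killer cell list of 11.4 to 67.3 CPM with Ncr1 and Klra8 at 0. There 10 of 21 type I style members were lower, with a median log2 fold change of -0.99, and 9 of 12 gamma style members, with a median of -1.26, beside -0.05 over all genes. Irf8 had 1.14, 1.40 and 0.382 CPM in region 6, which is 2, 4 and 1 UMIs, and a log2 fold change of -3.25 ± 0.43 (adjusted p = 5.9e-08); without replicate 4 the value was -2.59 and no longer called. Ifi27l2a, of the interferon-inducible Ifi27 family, had 13.7, 21 and 16.1 CPM in region 6 and a log2 fold change of -2.21 ± 0.15 (adjusted p = 3.4e-15). Bst2, or tetherin, which holds budding virus at the cell surface, had 60.5, 85.5 and 75.7 CPM in region 6 and a log2 fold change of -1.31 ± 0.14 (adjusted p = 3.5e-10). Gbp2 and Irf1 fell as well, by 2.66 ± 0.43 (adjusted p = 2.6e-06) and 1.49 ± 0.20 (adjusted p = 6.8e-08) on the log2 scale. Rsad2 was the exception, called higher in region 6 with 18.8, 12.3 and 7.27 CPM and a log2 fold change of 1.30.

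Region 1 had 10 of 21 type I style members lower (median log2 fold change -0.94) and 8 of 12 gamma style members (median -1.24). Over all genes 7.68% were lower and 5.9% higher there. Of the marker lists, 11 of 20 natural killer cell genes and 6 of 14 macrophage genes were also lower in region 1, with summed levels of 11.3 to 82.4 CPM and 202 to 271 CPM, and 10 of 17 decidual genes were higher; their part in the interferon values was not tested. Isg15 had 14.2, 52.9 and 27.2 CPM in region 1 and a log2 fold change of -1.49 ± 0.20 (adjusted p = 2e-07). Irf8 had 1.77, 2.80 and 2.23 CPM there and a log2 fold change of -2.20 ± 0.31 (adjusted p = 4.6e-07), which came to -1.83 and lost its call without replicate 4. In region 12 (Tnnc1, Fbln7 and Htra1), which rests on 2 libraries and had the highest summed decidual list, at 212776 and 135933 CPM, 10 members were lower and 1 was higher (background 14.9% and 15.2%). The higher one was again Rsad2, with 11.8 and 13.5 CPM and a log2 fold change of 1.86 ± 0.38 (adjusted p = 0.00012); without replicate 4 it was 1.39 and not called.

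Region 4, the natural killer cell list's highest region, was also set against region 6, the region with the highest mean log2 fold change over the decidual genes, although the summed level of that list was higher in region 12. In region 4, 25 of 33 members were higher (background 20%) and 1 was lower (background 16.4%). All 12 gamma style members were higher, with a median log2 fold change of 2.16, and 13 of 21 type I style members, with a median of 1.12, beside 0.07 over all genes. Irf8 differed by 5.91 ± 0.34 on the log2 scale (adjusted p = 5.6e-17), with 66.4, 102 and 113 CPM in region 4, against 1.14, 1.40 and 0.382 CPM in region 6. Psmb8 had 91.8, 150 and 144 CPM in region 4, against 15.4, 11.6 and 12.6 CPM in region 6 (log2 fold change 2.64 ± 0.23, adjusted p = 4e-12). Irf1, the early transcription factor of the gamma response, had 32.9, 30.0 and 34.7 CPM in region 4, against 6.85, 4.56 and 4.21 CPM in region 6 (log2 fold change 1.98 ± 0.22, adjusted p = 8.3e-10). None of these libraries overlap. For Psmb8 and Irf1 the unscaled CPM differ by more, on average over the libraries, than the fit's values. Of the type I style members, Ifi27 and Oasl2 were higher in region 4 by 2.00 ± 0.15 (adjusted p = 5.3e-14) and 2.03 ± 0.28 (adjusted p = 1.3e-07) on the log2 scale. Rsad2 was lower in region 4, with 0.685, 2.34 and 1.81 CPM, against 18.8, 12.3 and 7.27 CPM in region 6 (log2 fold change -3.34 ± 0.39, adjusted p = 3.1e-09).

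Ifi27l2a followed an order of its own. It had 522, 900 and 782 CPM in region 2 (Spon2, Npy and Clec11a), 309, 505 and 541 CPM in region 11 (Fbxl22, Hmcn2 and Asb2) and 287, 355 and 390 CPM in region 7 (Nppa, Wfikkn2 and Tnni2). These are regions of muscle and stroma: of 13 smooth muscle markers 12 were called higher in region 2 and 13 in each of regions 11 and 7. For Ifi27l2a the log2 fold change was 3.04 ± 0.08 in region 2 (adjusted p = 2.7e-27), while region 11 gave 2.48 ± 0.10 (adjusted p = 1.1e-21) and region 7 gave 2.23 ± 0.10 (adjusted p = 1.5e-20). In regions 3 and 5, where most other type I style members were high, it had 66.5, 134 and 99.7 CPM and 53.5, 101 and 74.2 CPM, with log2 fold changes of -0.00 and -0.07 and no call. Region 2 was the highest for Ifi27l2a in each library, and its mean level there was 62.2 times that of region 12, its lowest.

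Region 2 had 8 members higher (background 13.9%) and 1 lower (background 6.21%), and its natural killer and macrophage markers were high too, 20 of 20 and 11 of 14. Besides Ifi27l2a, its higher members were 6 gamma style genes, Gbp2, Irf8, Irgm1, Psmb8, Psmb9 and Iigp1, and Oas2, an enzyme that makes the second messenger of RNase L. Irf8 had 32.8, 42.2 and 41.5 CPM in region 2 and a log2 fold change of 1.86 ± 0.17 (adjusted p = 3.3e-11); Psmb9 had 21, 38.7 and 39.2 CPM and a log2 fold change of 1.41 ± 0.15 (adjusted p = 1e-09). Against the pooled other spots Irf8, Psmb9, Psmb8, Iigp1 and Oas2 came to 0.56, 0.93, 0.68, 0.41 and 0.45 and were not called, and Oas2 was also lost, at 0.97, without replicate 3. Rsad2 was the lower member of region 2, at -1.55 ± 0.34 on the log2 scale (adjusted p = 0.00029).

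Region 11 parted the members, with 5 higher (background 14.8%) and 9 lower (background 11.5%). DESeq2 called 7 higher and 5 lower. The higher ones besides Ifi27l2a were Gbp2, Igtp, Irf8 and Irf1. Gbp2 had 58.7, 27.9 and 24.8 CPM in region 11 and a log2 fold change of 2.14 ± 0.30 (adjusted p = 2.1e-07), with the shallow library the highest. Irf8 had 15.2, 33.5 and 20.2 CPM in region 11 and a log2 fold change of 1.2 ± 0.33 (adjusted p = 0.0034), but against the pooled other spots the value was -0.076, and it was 0.98 with no UMI minimum. Igtp, at 1.26, lost its call without the library of replicates 1 and 2 (1.18) and without replicate 3 (1.13). Irf1, at 1.03, came to 0.99 without the library of replicates 1 and 2 and to 0.92 with the other random set of genes. All 9 lower members were of the type I style. The endothelial list was the lowest of all regions in region 11, at 258 to 399 CPM with 12 of 18 genes called lower, and 13 of 13 smooth muscle and 8 of 14 macrophage genes were higher; their part in the interferon values was not tested. Ifit1 had 0, 5.58 and 0 CPM in region 11, from 2 UMIs in all, and Irf7 had 9.47, 16.7 and 24.8 CPM and a log2 fold change of -1.94 ± 0.25 (adjusted p = 3.9e-08). Irf7 came to -0.97 with the other random set of genes, just under the fold threshold.

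The remaining regions held few calls. Region 7 had 2 members higher and 3 lower (background 14.0% and 3.3%). Region 8 (Stmn2, Susd2 and Hmgn5) had 1 higher and 0 lower (background 6.43% and 5.76%), with 1 lower at an unadjusted p under 0.05 in edgeR and 0 in DESeq2. Its higher member was Iigp1, with 16.8, 35.1 and 27.8 CPM and a log2 fold change of 1.73 ± 0.22 (adjusted p = 1e-07), or 0.77 and no call against the pooled other spots. Region 9 (Spink1, Tmem213 and Itga8) had 1 higher and 2 lower (background 12.1% and 2.27%). Region 10 (Prl7a1, Plet1 and Pfpl), with a trophoblast list of 2305 to 3509 CPM, had 11 lower and 0 higher (background 12.0% and 16%), with 4 higher at an unadjusted p under 0.05 in edgeR and 0 in DESeq2. Of 12 gamma style members 7 were lower in region 10 (median log2 fold change -1.21), and of 21 type I style members 4 (median 0.06, beside 0.07 over all genes). Iigp1 had 1.93, 0 and 1.52 CPM in region 10, from 1, 0 and 4 UMIs, and Psmb9 had 3.87, 5.21 and 4.17 CPM with a log2 fold change of -1.50. The call of Iigp1 in region 10 was lost without the library of replicates 1 and 2, with the other random set of genes and at a resolution of 1.0. Type I style Isg15 and Bst2 had 52.2, 151 and 129 CPM and 253, 536 and 291 CPM in region 10.

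Summed over the class, type I style members had 1970 ± 456 CPM in region 3, 1785 ± 391 in region 2, 1626 ± 334 in region 5, 323 ± 45 in region 6 (SD, n = 3 each) and 306 ± 74 in region 12 (SD, n = 2). Gamma style members had 478 ± 38 CPM in region 4, 446 ± 94 in region 3, 374 ± 56 in region 2, 247 ± 51 in region 5 and 56 ± 10 in region 6 (SD, n = 3 each), and 48 ± 3 in region 12 (SD, n = 2). The ranges of regions 3, 2 and 5 overlap in the first class, though within each library the order was region 3, region 2, region 5. Region 4 was above region 3 in the second class in 2 of 3 libraries. These differences between sums were not tested. The sums are unscaled CPM, and in the scaled fit the type I style median was 1.39 in region 3 and 1.44 in region 5. Ifi27l2a, Bst2, Isg15 and Ifi27 weigh most in the first sum, Bst2 with 21.6% of its UMIs, and Psmb8 holds 23.6% of the second. In region 2, Ifi27l2a alone had a mean of 735 CPM, and 2 of 21 type I style members were called higher. With the narrower division the type I style sum was 214 ± 89 CPM in region 2. It was 550 ± 220 in region 3 and 478 ± 152 in region 5 (SD, n = 3 each). The log2 ratio of the first sum to the second was lowest in region 4, at 1.22, 1.38 and 1.32, with every library below every library of the other regions, and highest in region 10, at 3.43 ± 0.40. It was 2.72 ± 0.23 in region 5 and 2.14 ± 0.22 in region 3. The place of region 4 as lowest rests on which genes are counted: with the narrower division the lowest was region 11, at -0.82, against 0.57 in region 4, and with the mean of log2(CPM + 1) over members it was again region 11, at 0.06, against 0.20 in region 4. Region 10 was highest with both divisions and both scales, at 2.22 with the narrower one and 1.88 with mean logs.

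**Figure D3:**
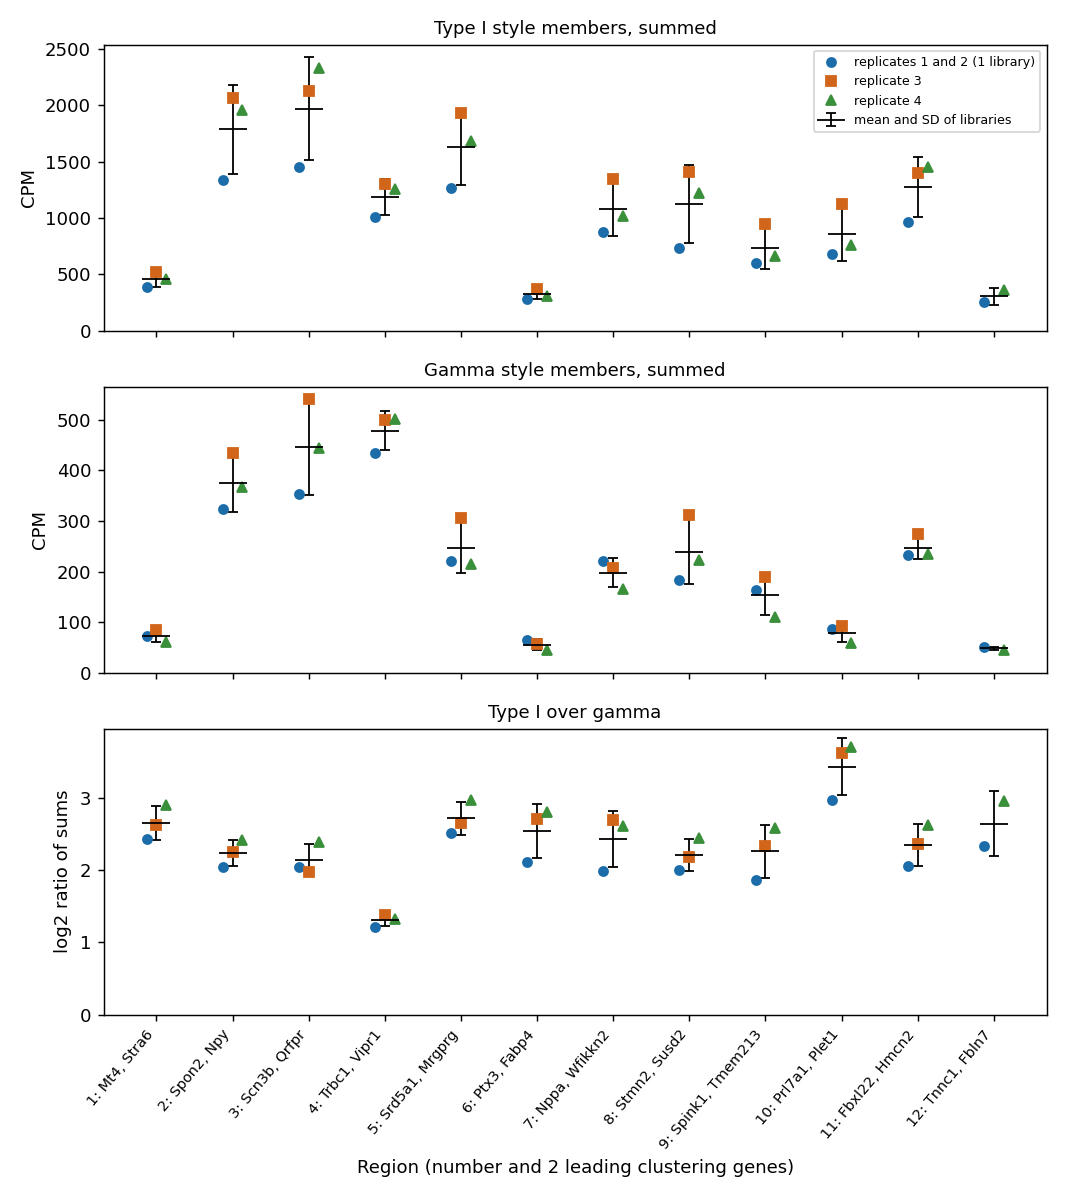
Summed CPM of type I style members (top), of gamma style members (middle) and the log2 ratio of the sums (bottom) in the 12 regions, with 1 point for each library and black bars for the mean and SD. The type I sum is highest in regions 3, 2 and 5, and in region 2 Ifi27l2a alone has a mean of 735 CPM. The gamma sum is highest in regions 4 and 3. The ratio is lowest in region 4, at 1.31 ± 0.09.

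Gene by gene, the highest regional mean in unscaled CPM was region 3 for 15 of 21 type I style members and region 5 for 4 (Ifi44, Ifih1, Oasl1 and Rsad2). It was region 2 for Ifi27l2a and region 4 for Ifi27. Of the 15, 8 had region 3 as the highest in each library. In the scaled fit regions 3 and 5 were close, with type I style medians of 1.39 and 1.44 and 16 of 21 members higher in each. For the 13 gamma style members it was region 3 for 4, region 2 for 3, region 11 for 3, region 4 for Irf8 and Psmb8, and region 5 for Gbp4. Across regions, Rsad2 had a weak negative Spearman's rho with the rest of the type I style sum, at -0.34, -0.35 and -0.19 (mean -0.30). Its mean rho with the gamma style sum was -0.58, both over 12, 11 and 12 regions of the 3 libraries. Its highest region in each library was nonetheless region 5, where most type I style members were higher. Gbp2, Psmb9 and Irf9 had the patterns most like the type I style sum, at 0.90 each, and the first pair are gamma style members. Ifi27, a type I style member, had the pattern most like the gamma style sum, at 0.96. These correlations describe the libraries, whose regions share depth and section.

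Levels also differed between libraries. Isg15, Ifi27l2a and Bst2 were lowest in the library of replicates 1 and 2 in all 11 regions that have 3 libraries, Xaf1 in 10 and Ifi27 in 9 of them, while Gbp2 was highest in that library in 7. Over the whole libraries the type I style sum was 850, 1428 and 1180 CPM and the gamma style sum 208, 328 and 216 CPM. The first library is also the shallowest, and the part of depth, slide or animals in these differences was not tested.

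In spots thinned to 3000 UMIs, the type I style sum had a median of 2, 4 and 3 UMIs per spot and the gamma style sum 0, 1 and 0, so single spots carry little information on the second class. Within libraries the sums had a Spearman's rho of 0.315, 0.327 and 0.344 over 1605, 1078 and 1083 spots. Of the marker lists, the type I style sum had a mean rho of 0.37 with natural killer cells, 0.32 with macrophages, 0.29 with smooth muscle, 0.29 with stromal matrix, 0.19 with endothelium and -0.40 with decidua. The gamma style sum had 0.39 with natural killer cells and -0.33 with decidua. Ranked within regions, the type I style values came to 0.10 with natural killer cells and -0.13 with decidua and the gamma style values to 0.13 and -0.10. With the narrower division the type I style sum had 0.22 with natural killer cells, 0.13 with macrophages, 0.23 with endothelium and -0.07 with decidua. Smooth muscle and stromal matrix then came to 0.01 and -0.05. Ifi27l2a had 0.51 with stromal matrix, 0.45 with smooth muscle and -0.47 with decidua, while Isg15 had 0.22 with endothelium. Spots of a library share its section and its depth, and these values are descriptions.

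Few interferon transcripts were counted. Ifng had 15 UMIs over the 3 libraries, Ifnb1 had 2 and Ifnl3 had 1, and Ifna1, Ifna2, Ifna4, Ifna5 and Ifnl2 had none. Ifnk, a type I interferon known from keratinocytes, had 883 UMIs, and Ifne, a type I interferon known from the female reproductive tract, had 134. Ifnk had 249, 68.6 and 117 CPM in region 10 and 41.9, 5.90 and 49.3 CPM in region 5, against 0 to 5.41 CPM in the sums of the other regions, with 0 UMIs in region 4. Its log2 fold change was 7.32 ± 0.28 in region 10 (adjusted p = 9.2e-21) and 5.12 ± 0.32 in region 5 (adjusted p = 5.1e-15), and both regions stood above all others in each library. Ifnk lies within Mob3b on the opposite strand, and Mob3b, with 76.8, 58.5 and 84.0 CPM in region 5 and 38.7, 24.3 and 42.4 CPM in region 10, had 56.4, 62.7 and 58.0 CPM in region 1, where Ifnk had 2.13, 0 and 0.669 CPM. Whether reads were counted by strand is not given in the sources used here. Ifne had 3.49, 11.3 and 3.88 CPM in region 5, which is 6, 44 and 17 UMIs, and was too low for the fit.

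**Figure D4:**
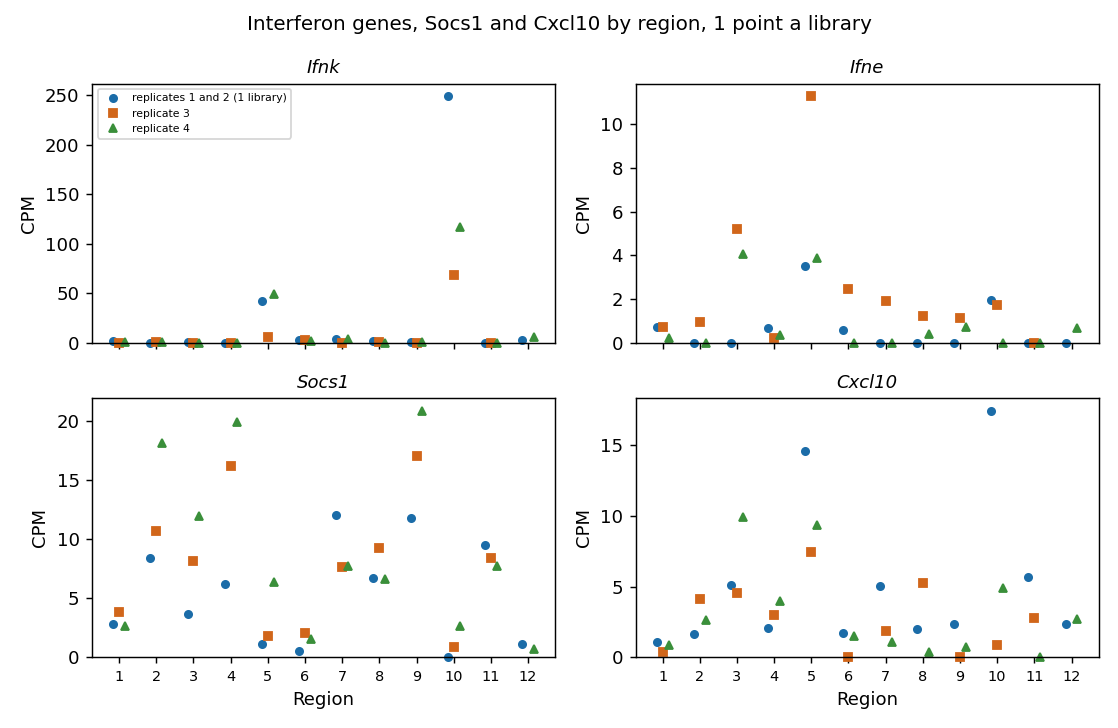
Levels in CPM of the interferon genes Ifnk and Ifne, of the inhibitor gene Socs1 and of Cxcl10 in the 12 regions (across), with 1 point for each library. Ifnk is highest in region 10 and next in region 5, Ifne in region 5, and Socs1 is lower in region 5 than in region 4 in each library.

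Of 16 tested receptor and signalling genes, 1 was called higher and 6 were called lower in region 10. The one higher there was Socs3, an inhibitor of cytokine signalling (log2 fold change 1.78 ± 0.16, adjusted p = 8.3e-12), and the lower ones were the receptor chains Ifngr1, Ifnar2 and Il10rb, the kinase gene Jak2, Socs1 and Tmem173, the DNA sensing adaptor STING. Socs3 was also called higher in region 3 (log2 fold change 1.28 ± 0.13, adjusted p = 5.6e-10), as were Tmem173 (1.21 ± 0.12, adjusted p = 2.7e-10) and Il10rb (1.02 ± 0.13, adjusted p = 2.7e-08). Ptpn2, a phosphatase that acts on Janus kinases, was called higher in region 5 (log2 fold change 1.06 ± 0.11, adjusted p = 9.3e-11). Socs1, which inhibits Janus kinases, had 1.16, 1.80 and 6.39 CPM in region 5, against 6.16, 16.2 and 19.9 CPM in region 4 (log2 fold change -1.63 ± 0.34, adjusted p = 9.1e-05, with an overlap between replicate 4 of region 5 and the first library of region 4), and against the mean of the other regions it was 1.28 ± 0.24 higher in region 4 on the log2 scale (adjusted p = 2.3e-05). The chemokine gene Cxcl10 had 14.5, 7.44 and 9.36 CPM in region 5 and a log2 fold change of 2.20 ± 0.35 there (adjusted p = 1.6e-06). The interferon gamma receptor chain Ifngr1 had 69.9, 97.8 and 86.5 CPM in region 4, against 23.4, 26.3 and 28.3 CPM in region 6 (log2 fold change 1.01 ± 0.13, adjusted p = 1.2e-08). Tmem173 had 32.9, 40.1 and 46.0 CPM in region 4, against 3.42, 3.86 and 3.44 CPM in region 6 (log2 fold change 2.77 ± 0.25, adjusted p = 4.9e-12).

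Of 13 tested genes of MHC class I presentation outside the members, 6 were higher in region 4 than in region 6 (background 20%). The median log2 fold change of the 13 was 0.89. Tap2, the partner of Tap1 in the peptide transporter, differed there by 2.39 ± 0.35 (adjusted p = 3.6e-07). Against the mean of the other regions the median of the 13 was 0.67 in region 3 and 0.58 in region 5, and 4 were lower in region 10 (background 12.0%). The summed level of the list was 1838 ± 149 CPM in region 2 and 1823 ± 125 in region 4. It was 1757 ± 388 in region 3 and 1526 ± 288 in region 5 (SD, n = 3 each).

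Grouped by promoter letters, of 13 tested members with the ISRE pattern 10 were higher in region 3 (background 7.88%), 1 in region 4 (background 9.51%) and 10 in region 5 (background 13.9%). Of 5 members with the GAS pattern alone (Ifi35, Ifit2, Irf1, Irf8 and Psmb8) 3 were higher in region 3 and 2 in region 4. Their log2 fold changes in region 5 ran from -0.10 for Irf1 to 0.98 for Ifit2, without a call. Of 8 members with neither pattern in the window 7, 1 and 7 were higher in regions 3, 4 and 5. The 1 of 13 and the 1 of 8 in region 4 are near the background.

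Several members share bases with other genes, and how the counting treated them is not given in the sources used here. Irf8 lies within Gm20388 and Igtp overlaps Irgm2 on the same strand, Irf9 overlaps Rnf31 on the same strand, and Tap1 and Psmb9 overlap on opposite strands. The Gbp, Ifit, Oasl and Ifi27 genes have close relatives, and reads common to relatives may be missing from the counts.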

How the data were processed

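The authors deposited raw UMI counts, 1 value for each gene and spot, which Space Ranger 1.2.2 produced, per the file headers. Cell Ranger and mm10 stand in the submitters' processing notes, and nothing at hand gives the counting settings. Spot positions were not used, and all deposited spots were taken as tissue. The members, the other gene lists and the tests were chosen with earlier results of these data known. Spots under 1000 UMIs were left out (38, 1 and 0). A random draw parted the genes into sets of 16142 and 16143; the 1500 genes of the first set that varied most, no listed gene among them, served to find regions (counts scaled to 10000 per spot, logs centred per library, scaled values limited to 10, 20 principal components, 15 neighbours, Leiden resolution 0.6, leidenalg 0.10.2, Python 3.11.15). No doublet caller was run, since spots hold several cells. Counts were summed per library and region (at least 20 spots) and fitted in R 4.3.3 with edgeR 4.0.16 (TMM, filterByExpr, library as a block, quasi-likelihood test); the genes of the second set and all listed genes were tested. The block comes from the design, since regions of a library share its section. The fit was tested on simulated counts. Alternatives were DESeq2 1.42.0, its scaling, no count filter, no minimum fold, no block, other regions, other UMI minimums, pooled other spots as the comparison and each library left out. Other UMI minimums also meant that the regions were drawn anew. The members may all be named; full statistics are given for up to 4 called members of each class and comparison with the smallest p and the same sign in every library. Spots were thinned to 3000 UMIs for correlations, leaving out 168, 2 and 3 shallower spots. Gene overlaps and promoter sequences came from GENCODE and RefSeq annotations of GRCm38; the library totals limit precision as the spread between libraries shows. The results of 1 gene of the signalling list are not reported here.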

Additional observations from a re-analysis of the deposited data

How the results depend on the processing

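Of 1083 values of 92 named results under alternatives, 1002 kept direction and call, 80 lost the call and 1 turned: Irf8 in region 11 came to -0.076 against the pooled other spots. Results of a single region were left out where its best redrawn match shared under 0.5 of the spots of either. The direct comparisons were kept in every setting, with their regions picked anew by the marker lists. Under the other random set and at both other resolutions, no redrawn region shared 0.5 of the spots with region 6. The values of region 4 minus region 6 there thus rest on unmatched decidual regions. The matching left 68 results with the other random set of genes, 68 at a resolution of 0.3 and 63 at 1.0. It left 79 at 5000 UMIs and 84 with no UMI minimum. Regions 1, 6 and 12 thus went unchecked with the other random set and at 1.0. So did regions 3, 6 and 11 at 0.3, region 7 at 1.0, regions 7 and 11 at 5000 UMIs and region 12 with no UMI minimum. The 71 calls higher over all regions were 108 at a resolution of 1.0 (which also drew more regions), 41 against the pooled other spots and 126 with no minimum fold. The 74 lower were 122 against the pooled other spots. Shares over all genes were counted for the main setting only, so whether members moved more than other genes cannot be read from these counts. Region 5 minus region 4, with 15 higher and 2 lower, gave 9 higher with the other random set of genes, 2 at a resolution of 0.3, 2 at 1.0 and 9 at 5000 UMIs, and 4 lower at 1.0 and 4 with no minimum fold. Leaving out a library gave 68 to 77 higher and 55 to 70 lower over all regions, 11 to 12 and 2 to 3 in region 5 minus region 4, and 24 to 26 and 1 in region 4 minus region 6. Without the library as a replicate block 4 of 92 named results lost their call and no count moved by over 1.5 times. The mean rho between the class sums, 0.329, was 0.170 thinned to 1000 UMIs, 0.602 without thinning, 0.116 ranked within regions, 0.185 with the narrower division and 0.283 without Bst2 and Psmb8. DESeq2's scaling shifted the median of all genes by -0.10 in region 10, 0.13 in region 11 and 0.10 in region 4 minus region 6 and changed no named call. The causes were not tested. Gbp5 and most interferon genes had too few UMIs for a test.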
